A study of Mus musculus with 10 samples.

Results

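The genes described here are the cadherins and protocadherins of whole mouse embryos at embryonic day (E) 7.5, compared between Rreb1+/+ and Rreb1-/- embryos. They were taken by symbol, as every gene named Cdh followed by a number or named Pcdh, with Cdh5 (VE-cadherin, the endothelial cadherin) left out. This gave 57 of the 20974 genes in the table, 18 cadherins and 39 protocadherins. The cadherins were 5 type I (Cdh1, Cdh2, Cdh3, Cdh4 and Cdh15), 10 type II (Cdh6 to Cdh12 where listed, Cdh20, Cdh22 and Cdh24) and 3 others (Cdh13, Cdh17 and Cdh23). The protocadherins were 12 non-clustered and 27 clustered genes, with 2 of the alpha, 4 of the beta and 21 of the gamma cluster.

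Cadherins are calcium-dependent adhesion proteins whose extracellular repeats bind the same or a related cadherin on a neighbouring cell. Type I and type II cadherins are the classical cadherins. Their tails bind p120-catenin and beta-catenin or plakoglobin, and alpha-catenin links the complex to actin. As cells leave the epiblast through the primitive streak, E-cadherin is replaced by N-cadherin. Protocadherins carry more repeats and lack the catenin-binding tail. The genes of the alpha and gamma clusters each splice a variable exon to constant exons shared within their cluster, whereas the beta genes do not. Neurons use combinations of clustered protocadherins as surface labels.

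The embryos came from intercrosses of Rreb1+/- mice and carried the strain label CD1, while the methods give a mixed background of CD-1, 129 Sv and C57BL6/C2J. The Rreb1-/- embryos were homozygous for a CRISPR-Cas9 deletion inside exon 6 of Rreb1, which encodes a zinc finger transcription factor. The study made a larger and a smaller deletion, and the sources used here do not say which one these embryos carried. There were 5 embryos of each genotype, numbered as replicates 2 to 6, and each was a single embryo with its own polyadenylated RNA library after the parietal endoderm had been removed for genotyping. Values are normalized counts, meaning reads per gene divided by 1 size factor per embryo.

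The libraries held 31467767 to 35786876 counted reads, of which the 57 genes took 0.0783% to 0.105%. Rreb1 itself was listed at 2365 to 2924 in Rreb1+/+ and 3988 to 5715 in Rreb1-/- embryos, a sum over all exons that cannot check a deletion within one of them. Xist, the RNA that coats an inactive X, was high in every Rreb1+/+ embryo (45657 to 68009) and in mutant replicate 2 (58036). It was 39.3 to 61.3 in the other 4 mutants, whose Y-linked normalized counts, summed over 4 genes, were 5849 to 9171 against 0 to 3.82 in the remaining embryos. Sex and genotype could thus be told apart only through mutant replicate 2. On the first principal component, replicates 5 and 6 lay at 27.8 to 48.2 in either genotype. Rreb1+/+ replicates 2 to 4 lay at −6.77 to −3.64 and mutant replicates 2 to 4 at −47.5 to −43.7. Eomes, a streak marker, was 1560 to 1928 in Rreb1+/+ replicates 2 to 4 and 4549 to 5858 in mutant replicates 2 to 4. Lhx1, Mesp1, Mesp2 and Lefty2 were also higher in these mutants without overlap, Tbx6 was lower, and the other streak markers overlapped. The part of these markers in the levels of Cdh2, Cdh8 and Pcdh7 was not tested. The summed epiblast markers were 34936 to 50316 in replicates 2 to 4 and 15962 to 21092 in replicates 5 and 6, and the summed endothelial markers were 2515 to 3479 and 5311 to 7286. Most of the epiblast sum came from Dnmt3b (24656 to 35744 and 10065 to 14869). Sox2 (1007 to 1506 and 868 to 1077) and Utf1 overlapped between these sets, while Pou5f1, Nanog and Fgf5 did not. The 7 parietal endoderm markers summed to 77051 in mutant replicate 2 and 82571 in mutant replicate 6, against 42819 to 55407 in the other embryos. In whole embryos, fewer cells of a type and less RNA per cell cannot be told apart.

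Of the 57 genes, 39 reached a mean of 15 in 1 or both genotypes and were tested with limma on log2(normalized count + 1). Adjustment of p followed Benjamini and Hochberg over all 15603 genes tested, and genes are called higher or lower at an adjusted p under 0.05. Log2 fold changes compare Rreb1-/- with Rreb1+/+ and understate the change of low genes. A pair of type II cadherins, Cdh6 and Cdh11, were higher in the mutants, and 1 non-clustered protocadherin, Pcdh19, was lower. No clustered protocadherin was called. Over all genes tested, 4.26% were called, 3.11% higher and 1.15% lower, so that the 2 of 39 higher and 1 of 39 lower are close to the background. By edgeR the 2 cadherins were called and no protocadherin, beside 3.24% of all genes higher and 1.08% lower. By DESeq2 Pcdh7 joined the 3 genes, beside 5.03% higher and 2.74% lower. An unadjusted limma p under 0.05 was found for 4 members higher and 3 lower, beside 9.74% and 8.21% of all genes tested. Genotypes were free of overlap for 4 of the 39, beside 6.7% of all genes tested. The median log2 fold change of the 39 was 0.05, beside −0.02 over all genes tested. It was 0.30 for the 12 classical cadherins tested and 0.03 for the 14 clustered protocadherins tested.

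**Figure D1:**
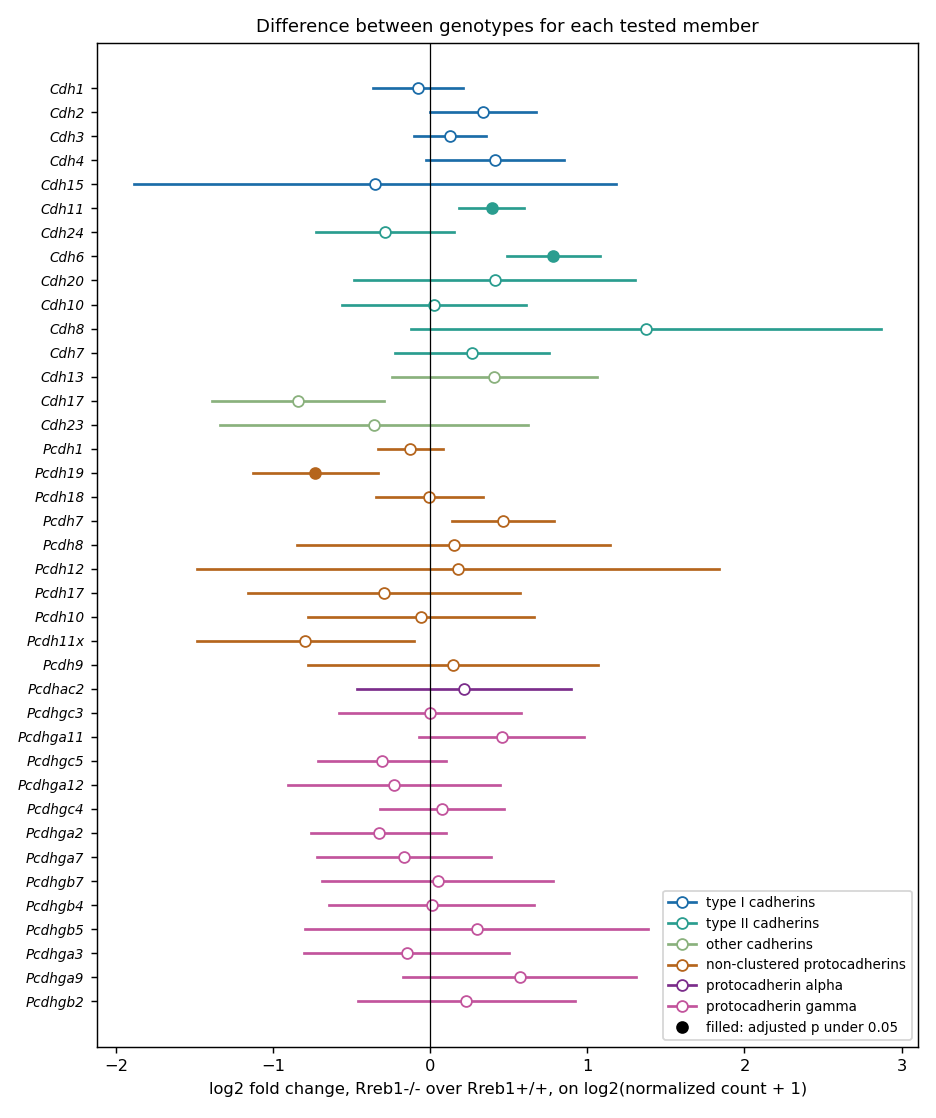
Log2 fold change (Rreb1-/- over Rreb1+/+, on the log2(normalized count + 1) scale) of each of the 39 tested genes, ordered within each class by mean level. Lines are 95% confidence intervals from limma and filled points are called at an adjusted p under 0.05: Cdh11 and Cdh6 lie to the right of 0 and Pcdh19 to the left.

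The 250 bases before the start of Cdh6 and of Pcdh19 are shown because these genes had the largest rise and the largest fall among the called members, and because RREB1 binds C-rich DNA. They are RefSeq sequences of GRCm38.p6, written 5′ to 3′ on the strand of the gene (both the minus strand), ending at the base before the start. Capitals mark CCACCCC, a core of C-rich RREB1 sites that was searched on both strands.
Cdh6, chr15:13173676-13173925: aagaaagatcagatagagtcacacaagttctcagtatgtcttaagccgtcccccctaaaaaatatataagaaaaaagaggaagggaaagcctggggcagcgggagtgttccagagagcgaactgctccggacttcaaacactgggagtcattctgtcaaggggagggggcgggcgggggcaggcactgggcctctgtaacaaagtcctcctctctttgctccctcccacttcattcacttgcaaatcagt
Pcdh19, chrX:133688994-133689243: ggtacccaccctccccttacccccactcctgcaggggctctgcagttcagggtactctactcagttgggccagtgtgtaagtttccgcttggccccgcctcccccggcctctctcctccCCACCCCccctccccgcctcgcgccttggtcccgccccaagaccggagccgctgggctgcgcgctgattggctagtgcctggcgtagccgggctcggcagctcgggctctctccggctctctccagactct
Pcdh19 held 1 CCACCCC and Cdh6 none. Among all 32851 promoter windows of this length, 13.5% held it. CACCTG, the E-box bound by SNAIL and ZEB repressors, was in neither window and in 17.2% of all windows. The windows differed in base composition, with 51.2% G and C in Cdh6 and 69.2% in Pcdh19. A match of letters is a description and not a binding site. Of the 57 genes, 20 had a window in the table, and Cdh11 was not among them.

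Per kilobase of exon, Cdh1 was by far the most abundant of the cadherins and non-clustered protocadherins, at 3375 ± 498 normalized counts per kb (SD, n = 10 embryos). Pcdh1 followed at 374 ± 42.9, then Cdh3 at 318 ± 37.9, Cdh2 at 268 ± 61.0, Pcdh18 at 252.3 ± 46.1 and Cdh11 at 226 ± 38.1. Pcdh19 stood at 152 ± 47.4, Cdh24 at 126 ± 29.6, Pcdh7 at 91.6 ± 22.9, Cdh4 at 75.4 ± 21.9, Pcdh8 at 60.0 ± 29.6, Cdh6 at 30.6 ± 9.67 and Cdh20 at 26.3 ± 12.9. All others were under 10 per kb. After Cdh1, each gene in this order differed from the next by less than the sum of their SDs. Clustered genes were left out of this order because the shared exons of the alpha and gamma genes make the length uncertain.

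Cdh1 encodes E-cadherin, the cadherin of epiblast, visceral endoderm and other epithelia. Its normalized count was 18034, 17548, 16754, 14162 and 12631 in Rreb1+/+ replicates 2 to 6 and 16111, 16928, 17046, 13701 and 11439 in Rreb1-/- replicates 2 to 6. The genotypes overlapped throughout, and in each genotype replicates 5 and 6 were the lowest embryos. The log2 fold change was −0.08 (95% confidence interval −0.36 to 0.21, limma adjusted p = 0.81).

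Cdh2 encodes N-cadherin, which mesoderm takes up after leaving the streak. It was 1729.8, 2215, 2029, 1775 and 1709 in Rreb1+/+ embryos and 2696, 2729, 3040.2, 1985 and 1705 in Rreb1-/- embryos. Mutant replicates 2 to 4 lay above every Rreb1+/+ embryo, mutant replicate 5 lay within their range, and mutant replicate 6 lay just below the lowest of them. The log2 fold change of 0.34 did not pass (interval 0.00 to 0.67, limma adjusted p = 0.28). It was 0.51 in replicates 2 to 4 (adjusted p = 0.0518) and 0.08 in replicates 5 and 6 (adjusted p = 0.82). The difference between these values had an adjusted p of 0.83 in limma, in an interaction fit added after seeing the data. Only 7 of the 15603 genes tested had an adjusted p under 0.05 in that fit. A missing call there, for Cdh2 or for genes below, thus does not show that the sets agree.

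The ratio of Cdh1 to Cdh2, computed after the values of both had been seen and so given without a test, was lower in every mutant. Per kb of exon it was 18.4, 14.0, 14.6, 14.1 and 13.0 in Rreb1+/+ embryos and 10.5, 10.9, 9.89, 12.2 and 11.8 in Rreb1-/- embryos. The genotypes did not overlap, nor did they among replicates 2 to 4 or replicates 5 and 6 taken separately. The gap was narrow in replicates 5 and 6, where the lower Rreb1+/+ embryo stood at 13.0 and the higher mutant at 12.2.

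Among the other type I cadherins no call was made. Cdh3 (P-cadherin, expressed in extraembryonic and surface epithelia) averaged 1334 ± 191 and 1451 ± 132 (SD, n = 5 embryos each; limma log2 fold change 0.13, adjusted p = 0.57). Cdh4 (R-cadherin, a neural and renal cadherin) was 452, 559, 599.6, 355 and 373 in Rreb1+/+ and 630.5, 895, 651, 480.4 and 475 in Rreb1-/- embryos. Each mutant lay above the Rreb1+/+ embryo of the same number, while the groups overlapped. Its log2 fold change of 0.41 had a limma adjusted p of 0.31, and of 0.0427 with the replicate number as a block, where it was called higher. With the block 3 members were called higher and 1 lower, beside 4.59% and 2.28% of all genes tested. Cdh15 (M-cadherin of skeletal muscle) was low, at 17.2 ± 6.69 and 18.2 ± 13.9, with a limma log2 fold change of −0.35 (interval −1.88 to 1.18) against 0.08 by edgeR and DESeq2.

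**Figure D2:**
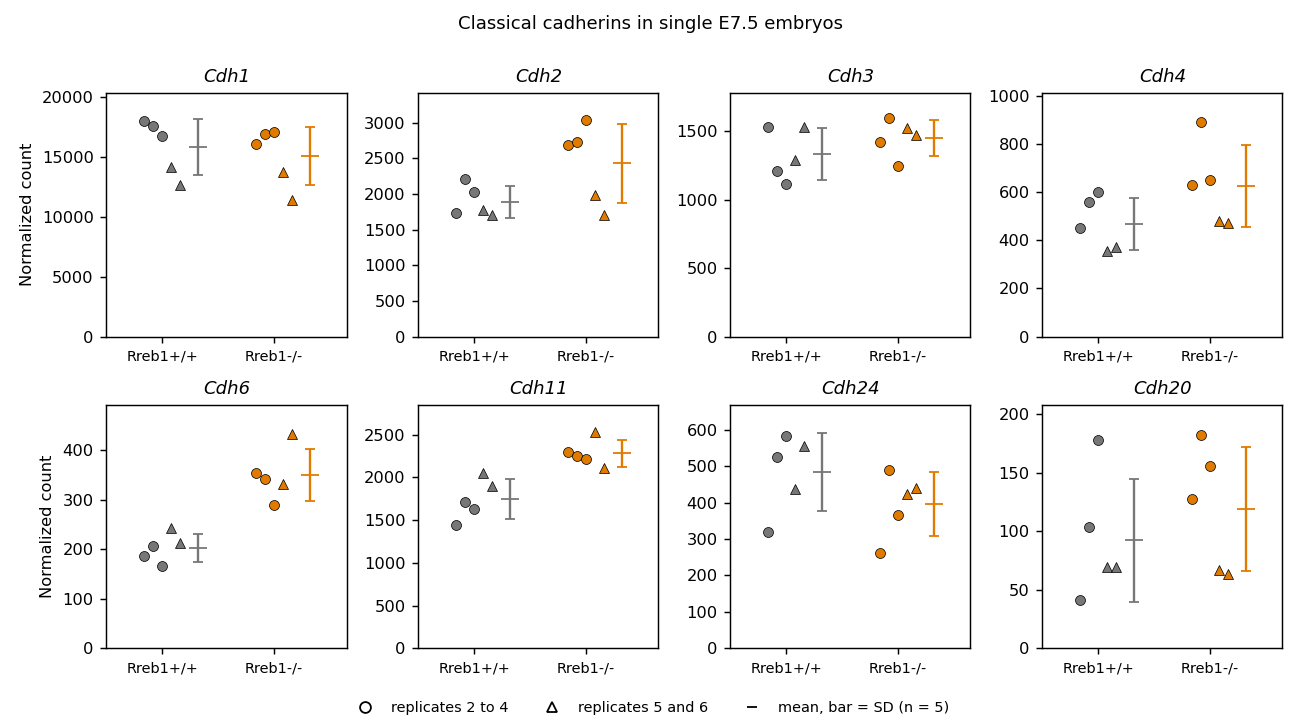
Normalized count of 8 classical cadherins in each embryo, with circles for replicates 2 to 4, triangles for replicates 5 and 6, and mean and SD beside them (n = 5 per genotype, axes from 0). Only Cdh6 and Cdh11 of these panels separate the genotypes without overlap; Cdh1 and Cdh4 are lower in replicates 5 and 6 of each genotype.

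**Figure D3:**
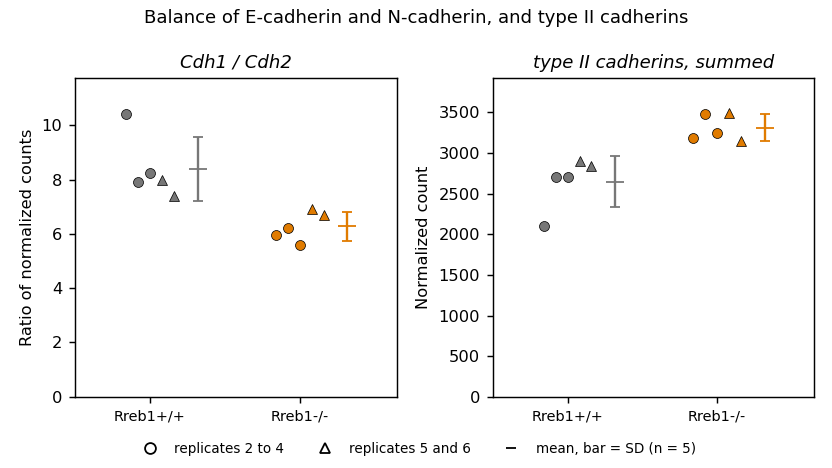
Left, the ratio of Cdh1 to Cdh2 normalized counts (not per kb) in each embryo, 7.39 to 10.4 in Rreb1+/+ and 5.61 to 6.90 in Rreb1-/-. Right, the summed normalized count of the 10 type II cadherins, 2100 to 2906 and 3149 to 3493. Bars show mean and SD (n = 5 per genotype), and neither panel overlaps between genotypes. Cdh11 made up most of this sum, and Cdh11 and Cdh6 each separated the genotypes on their own, so the right panel is no separate result.

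Cdh6 encodes K-cadherin, a type II cadherin of early neural, renal and mesenchymal tissue, and occupies chr15:13028701-13173675 in GENCODE M21 (GRCm38). Its normalized count was 186, 206, 166, 242 and 212 in Rreb1+/+ embryos and 354, 341, 289, 332 and 433 in Rreb1-/- embryos. Every mutant lay above every Rreb1+/+ embryo, in both groups of replicates. Over all genes tested, 4.24% had mutants higher without overlap. The mean rose from 202 ± 28.5 to 350 ± 52.5, and limma gave a log2 fold change of 0.78 with a standard error of 0.14 and an adjusted p of 0.00736 (exact two-sided permutation test p = 0.00794, the smallest that 5 against 5 embryos can give). It was 0.81 in replicates 2 to 4 (limma adjusted p = 0.0311) and 0.74 in replicates 5 and 6, where it was not called (adjusted p = 0.21). In replicates 2 to 4 alone, 4 members were called higher and 0 lower, beside 2.17% and 1.44% of all genes tested. With the Y-linked reads as a covariate it was 0.85 with an adjusted p of 0.15.

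Cdh11 encodes OB-cadherin, a cadherin of mesenchyme, and occupies chr8:102632095-102785642. It was 1443, 1715, 1635, 2056 and 1897 in Rreb1+/+ embryos and 2298, 2249.7, 2212, 2536 and 2116 in Rreb1-/- embryos. The groups did not overlap, although the lowest mutant, replicate 6, exceeded the highest Rreb1+/+ embryo, replicate 5, only slightly. The mean rose from 1749 ± 237 to 2282 ± 157, with a log2 fold change of 0.39, a standard error of 0.09 and an adjusted p of 0.0393 in limma (exact permutation p = 0.00794). The call was lost when any embryo other than Rreb1+/+ replicate 5 or mutant replicate 6 was left out, with limma adjusted p from 0.0228 to 0.0957 over the 10 fits. It was also lost with the Y-linked covariate (log2 fold change 0.41, adjusted p = 0.24). In replicates 2 to 4 the log2 fold change was 0.50 (limma adjusted p = 0.0315, called), and in replicates 5 and 6 it was 0.23 (adjusted p = 0.53).

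The other type II cadherins gave no call. Cdh24 averaged 484 ± 107 and 396 ± 87.3 in Rreb1+/+ and Rreb1-/- embryos (limma log2 fold change −0.29, adjusted p = 0.49). Cdh20, a cadherin of neural tissue, averaged 92.2 ± 52.6 and 119 ± 52.8, and Cdh10 averaged 73.2 ± 10.4 and 78.8 ± 29.9. Cdh7 (cadherin of neural crest in the chick) was at 17.7 ± 2.72 and 21.8 ± 4.69. Limma adjusted p-values of these 3 genes were 0.64, 0.97 and 0.58. Cdh9, Cdh12 and Cdh22 were below the level for testing, with means of 2.99 to 14.9.

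Cdh8, a type II cadherin best known from the nervous system, differed within the mutants. It was 7.68, 8.03, 19.1, 6.72 and 3.77 in Rreb1+/+ embryos and 49.8, 62.3, 39.3, 7.43 and 5.22 in Rreb1-/- embryos. Mutant replicates 2 to 4 lay well above the rest, and mutant replicates 5 and 6 lay at the level of the Rreb1+/+ embryos. The log2 fold change over all embryos was 1.37 (interval −0.12 to 2.87, limma adjusted p = 0.32). In replicates 2 to 4 it was 2.12 (adjusted p = 0.0290, called), and in replicates 5 and 6 it was 0.25 (adjusted p = 0.88). The difference between the sets was not called in limma (adjusted p = 0.69).

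Classical cadherin genes lie partly side by side. On chromosome 15, Cdh6 is followed by Cdh9 (from 16728756), which averaged 8.34 ± 5.81 and 14.9 ± 9.97 and was too low to test, and by Cdh10 (from 18818947), with a log2 fold change of 0.02. On chromosome 8, Cdh11 is preceded by Cdh8 (from 99024471), with the log2 fold change of 1.37 given above, and followed by Cdh3 (from 106510891) and Cdh1 (from 106603351), with 0.13 and −0.08. Summed, the type II cadherins were 2100.2, 2699.5, 2709, 2906 and 2835 in Rreb1+/+ and 3183, 3483, 3245, 3493 and 3149 in Rreb1-/- embryos, without overlap. Cdh11 made up most of these summed counts, with means of 1749 of 2650 in Rreb1+/+ and 2282 of 3311 in Rreb1-/- embryos. As Cdh11 and Cdh6 each separated the genotypes on their own, the sum is no separate result, and Cdh24 averaged lower in the mutants.

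Of the cadherins outside the classical types, Cdh17 (liver-intestine cadherin, which lacks the catenin-binding tail) was 58.5, 55.2, 37.2, 47.1 and 47.1 in Rreb1+/+ and 19.1, 17.7, 34.0, 31.6 and 36.5 in Rreb1-/- embryos. The groups did not overlap, as in 2.46% of all genes tested with mutants lower, but Rreb1+/+ replicate 4 lay next to mutant replicate 6. In limma its log2 fold change of −0.84 had a standard error of 0.25 and did not pass (adjusted p = 0.0926; exact permutation p = 0.00794). The summed visceral endoderm markers, all 13 of them detected, were 280737 to 314115 in Rreb1+/+ and 207345 to 292769 in Rreb1-/- embryos. Most of each sum came from Apob (106498 to 136562 and 82439 to 135049) and Cubn (81436 to 100469 and 63036 to 92136). Of the 13 markers, 1 (Afp) was lower in the mutants without overlap and 0 were higher. The part of these markers in the difference of Cdh17 was not tested. Cdh13 (T-cadherin, held by a lipid anchor) averaged 52.4 ± 18.9 and 68.8 ± 20.2 (limma adjusted p = 0.51), and Cdh23 (a tip-link cadherin of hair cells) averaged 27.7 ± 17.3 and 19.3 ± 9.17 (adjusted p = 0.72).

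Pcdh19 is an X-linked non-clustered protocadherin that forms complexes with N-cadherin, and occupies chrX:133582860-133688987. Its normalized count was 1636, 2404, 1920.1, 1769 and 2132 in Rreb1+/+ embryos and 829.7, 1500.5, 905, 1413 and 1419 in Rreb1-/- embryos. Every mutant lay below every Rreb1+/+ embryo, with mutant replicates 2 and 4 the lowest. The means were 1972 ± 304 and 1213 ± 319, and limma gave a log2 fold change of −0.73 with a standard error of 0.18 and an adjusted p of 0.0456 (exact permutation p = 0.00794). By edgeR on the recovered reads the adjusted p was 0.0510 and by DESeq2 it was 0.00329. Leaving out any embryo other than mutant replicates 3, 5 and 6 ended the call, with limma adjusted p from 0.0396 to 0.117. With the Y-linked covariate the log2 fold change was −1.18 and the adjusted p 0.11. In replicates 2 to 4 it was −0.91 (limma adjusted p = 0.0828) and in replicates 5 and 6 it was −0.46 (adjusted p = 0.21), neither of them called. The lowest mutant was replicate 2, the one mutant with high Xist and no Y-linked reads above the Rreb1+/+ level.

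Pcdh11x, the other X-linked member, is a protocadherin of the brain. It was 21.1, 26.1, 20.1, 33.6 and 17.9 in Rreb1+/+ and 9.54, 17.7, 7.43, 22.3 and 12.5 in Rreb1-/- embryos. The groups overlapped, and here too mutant replicates 2 and 4 were the lowest. Its log2 fold change was −0.80 (interval −1.49 to −0.11, limma adjusted p = 0.21).

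Pcdh7 (NF-protocadherin of neural folds and ectoderm) was 725, 766, 698, 1035 and 844 in Rreb1+/+ and 1468, 1241, 995, 1049 and 889 in Rreb1-/- embryos. Mutant replicates 2 to 4 lay above the Rreb1+/+ embryos of the same numbers without overlap, and replicates 5 and 6 of the genotypes were intermixed. Over all embryos limma gave 0.46 on the log2 scale (interval 0.14 to 0.79, adjusted p = 0.12). DESeq2 called it (adjusted p = 0.0387), as did limma in replicates 2 to 4 alone (0.74, adjusted p = 0.0364), whereas in replicates 5 and 6 it was 0.05. In limma the difference between the sets was not called (adjusted p = 0.68).

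The remaining non-clustered protocadherins showed no call. Pcdh1, an epithelial protocadherin and the most abundant of the class, averaged 3430 ± 347 in Rreb1+/+ and 3146 ± 386 in Rreb1-/- embryos (limma log2 fold change −0.13, adjusted p = 0.52). Pcdh18, a protocadherin of mesoderm and other mesenchyme, averaged 1361 ± 294 and 1346 ± 226 (interval −0.35 to 0.34). Pcdh8, the paraxial protocadherin of streak and presomitic mesoderm, ranged from 94.0 to 466 in Rreb1+/+ and from 146 to 459 in Rreb1-/- embryos, a wide spread within each genotype (interval −0.84 to 1.15). Pcdh17, Pcdh10 and Pcdh9, all best known from the brain, averaged 30.4 ± 10.9, 27.2 ± 11.3 and 15.1 ± 7.24 in Rreb1+/+ and 26.5 ± 15.0, 25.8 ± 10.3 and 17.1 ± 9.01 in Rreb1-/- embryos. Their limma adjusted p-values were 0.75, 0.95 and 0.89. Pcdh15 and Pcdh20 were too low to test, with means of 2.84 to 8.93.

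Pcdh12, a protocadherin of endothelium and trophoblast, followed the replicate numbers rather than the genotype. It was 36.5, 15.1, 8.59, 119 and 163 in Rreb1+/+ and 50.9, 20.8, 32.9, 104 and 51.1 in Rreb1-/- embryos. Replicates 5 and 6 lay above replicates 2 to 4, narrowly so for mutant replicate 6 against mutant replicate 2. Between genotypes its log2 fold change was 0.18 (interval −1.48 to 1.84, limma adjusted p = 0.93), while the mean normalized counts ran the other way, at 68.4 ± 68.8 and 52.0 ± 31.8, as did edgeR (−0.39) and DESeq2 (−0.40). The sum of the 7 endothelial markers, given above, was also higher in replicates 5 and 6. Kdr, one of them, overlapped between the sets, at 1802 to 2835 in replicates 2 to 4 and 2707 to 3952 in replicates 5 and 6. The part of these markers in the Pcdh12 values was not tested.

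**Figure D4:**
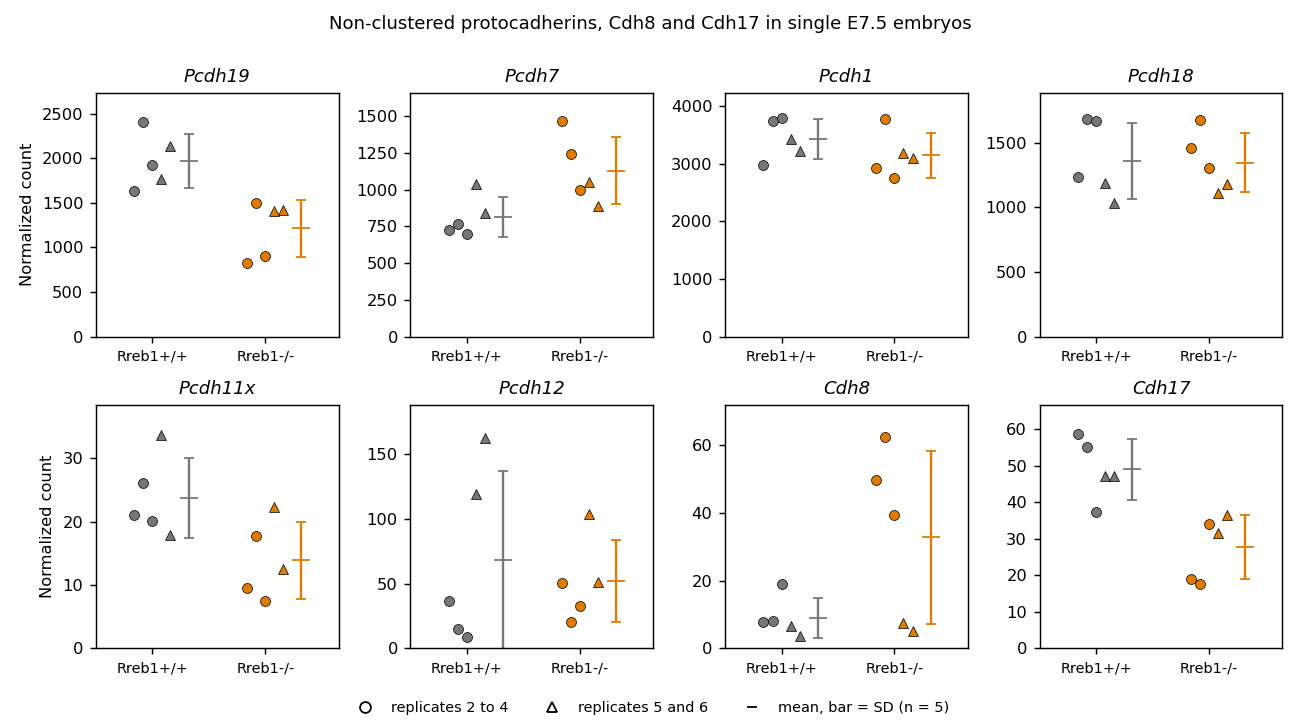
Normalized count of 6 non-clustered protocadherins and of Cdh8 and Cdh17 in each embryo, with circles for replicates 2 to 4, triangles for replicates 5 and 6, and mean and SD beside them (n = 5 per genotype, axes from 0). Pcdh19 and Cdh17 are lower in every mutant, Cdh8 is high in mutant replicates 2 to 4 alone, and Pcdh12 is highest in replicates 5 and 6.

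The clustered protocadherins were expressed at low levels. Of the 27, 14 were tested, and none was called in limma, in edgeR or in DESeq2, nor did any have an unadjusted limma p under 0.05. DESeq2 gave no adjusted p for Pcdhga9 and Pcdhgb2. Their log2 fold changes ranged from −0.33 to 0.57. Exons shared with other genes on the same strand made up 31.5% to 66.8% of the exonic bases of the gamma genes and 48.6% to 53.6% of the alpha genes, so the counts of single genes are uncertain and depend on how shared reads were assigned.

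In the gamma cluster, Pcdhgc3, 1 of the C-type genes that close the cluster, had the highest level per length, at 42.5 normalized counts per kb of annotated exon against 10.6 for the next, Pcdhga11. Its normalized count was 191, 187, 175, 309 and 295 in Rreb1+/+ and 188, 254, 127, 289 and 322 in Rreb1-/- embryos. The genotypes overlapped, while replicates 5 and 6 were the highest of each genotype. Its log2 fold change was 0.00 (interval −0.58 to 0.58), and Pcdhgc3 took 27.1% to 41.3% of the summed gamma counts. Pcdhga11 averaged 42.2 ± 10.7 and 58.5 ± 15.5 (log2 fold change 0.46, adjusted p = 0.35 in limma), and Pcdhgc5 at 55.1 ± 11.6 and 44.0 ± 6.32 (−0.31, adjusted p = 0.42). The gamma genes summed to 650 ± 163 in Rreb1+/+ and 656 ± 160 in Rreb1-/- embryos.

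In the alpha cluster Pcdhac2 averaged 32.1 ± 11.0 and 38.1 ± 14.9 (limma adjusted p = 0.77), and Pcdha12 had means under 2. The 4 beta genes were also too low to test, and summed to 4.80, 5.02, 8.59, 6.72 and 5.65 in Rreb1+/+ and 8.48, 18.7, 14.9, 11.2 and 12.5 in Rreb1-/- embryos. Mutant replicate 2 lay just under Rreb1+/+ replicate 4, and the other 4 mutants lay above all Rreb1+/+ embryos, at counts of a few reads. Pcdhb17 averaged 1.16 ± 0.80 and 3.71 ± 1.26, Pcdhb16 0.97 ± 1.17 and 4.29 ± 2.90, and Pcdhb22 3.08 ± 1.39 and 3.08 ± 0.74.

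**Figure D5:**
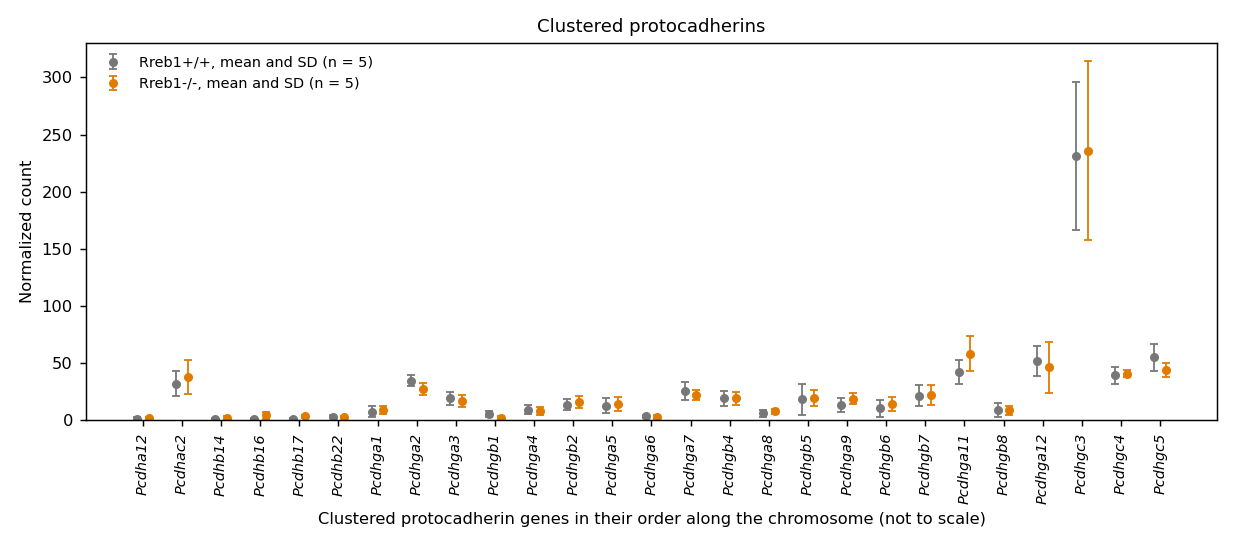
Mean normalized count and SD (n = 5 embryos per genotype) of the 27 clustered protocadherins in their order along the chromosome, with the distance between genes not to scale. The genotypes lie within each other's SD at most genes, and Pcdhgc3 has the highest count, at 231 ± 65.1 and 236 ± 78.6.

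Across replicate numbers, 8 of the 39 tested genes had replicates 5 and 6 of both genotypes wholly above or below replicates 2 to 4, which is 20.5% beside 8.67% of all genes tested. These were Cdh1, Cdh8 and Pcdh18, which were lower in replicates 5 and 6, and Pcdh12, Pcdhgc3, Pcdhac2, Pcdhgb5 and Pcdhga3, which were higher. Cdh8 was counted by a narrow margin at low counts, with mutant replicate 5 just under Rreb1+/+ replicate 2. Pcdhgc3, Pcdhgb5 and Pcdhga3 share exons of the gamma cluster, so they are not independent of each other. The mean of Cdh1 was 17445 in Rreb1+/+ replicates 2 to 4 and 13396 in replicates 5 and 6, and 16695 and 12570 in the mutants. The mean of Pcdhgc3 was 184 and 302 in Rreb1+/+ and 190 and 306 in Rreb1-/- embryos. These sets were noticed in the data, so the counts are given without a test.

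Of 12 tested genes for proteins that bind the cadherin tail or link it to actin, 1 was higher and 1 lower, with a median log2 fold change of −0.02, as over all genes tested. Beside the limma counts of this list and of those below stand 3.11% of all genes tested higher and 1.15% lower. Ctnna2, the neural alpha-catenin, was 72.8 ± 14.7 in Rreb1+/+ and 201 ± 84.7 in Rreb1-/- embryos, without overlap (log2 fold change 1.37 with a standard error of 0.27, adjusted p = 0.0149 in limma). The call was lost with the Y-linked covariate (log2 fold change 0.89, adjusted p = 0.32). Of 8 markers of differentiated neurons, all detected, Tubb3 and Syt1 were higher in every mutant and the other 6 overlapped. The sum of the 8 was 1557 to 2451 in Rreb1+/+ and 2849 to 3832 in Rreb1-/- embryos, of which Tubb3 made up 458 to 779 and 1156 to 2389. Map2 was 279 to 531 and 525 to 792, overlapping only through mutant replicate 5. Stmn2 was 525 to 686 and 469 to 761, Elavl3 151 to 500.3 and 208 to 546, and Snap25 24.01 to 30.7 and 14.6 to 39.3. Their part in the levels of Ctnna2, Cdh6 and Cdh11 was not tested.

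Jup encodes plakoglobin, which takes the place of beta-catenin in desmosomes and some junctions. It was lower in the mutants without overlap, averaging 2479.6 ± 354 and 1623 ± 273, and had a log2 fold change of −0.62, a standard error of 0.13 and an adjusted p of 0.0206 in limma. It lost its call with the Y-linked covariate (log2 fold change −0.89, adjusted p = 0.11) and when Rreb1+/+ replicate 3, 4 or 6 or mutant replicate 4 was left out (0.0156 to 0.0579 over the 10 fits). Ctnnb1 (beta-catenin) had a log2 fold change of 0.02 (adjusted p = 0.81), Ctnnd1 (p120-catenin) of −0.10 (adjusted p = 0.55) and Ctnna1 (epithelial alpha-catenin) of −0.14 (adjusted p = 0.13). DESeq2 called Ctnna1 lower.

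Of 18 tested genes that carry cadherin repeats but have other names, 1 was higher and none lower, with a median log2 fold change of 0.06. Clstn2, a calsyntenin of synapses, rose from 50.3 ± 12.2 to 132 ± 15.6 without overlap (log2 fold change 1.40 with a standard error of 0.20, adjusted p = 0.00216 in limma). With the Y-linked covariate the log2 fold change was 1.31 and the adjusted p 0.14. By edgeR 2 were higher (Ret in addition), beside 3.24% of all genes tested. By DESeq2 4 were higher (Ret, Clstn1 and Fat3 in addition), beside 5.03% of all genes tested. With the replicate number as a block, Ret, a receptor tyrosine kinase with cadherin-like domains, was also called higher (limma adjusted p = 0.0192) and Cdhr5, a cadherin of brush borders, lower (adjusted p = 0.0199). With this block 4.59% of all genes tested were higher and 2.28% lower. None of 5 nectins was called in limma, and their median log2 fold change was −0.13. In each direction 1 had an unadjusted limma p under 0.05, beside 9.74% of all genes tested higher and 8.21% lower. Pvrl3 (nectin-3) just missed the threshold (adjusted p = 0.0522) and was called higher with the block (adjusted p = 0.0282), by edgeR and by DESeq2.

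None of 10 repressors of E-cadherin transcription was called by limma, edgeR or DESeq2 or had an unadjusted limma p under 0.05. Their median log2 fold change was −0.18. Over all genes tested, 9.74% were higher and 8.21% lower at an unadjusted limma p under 0.05. Snai1, the SNAIL of the primitive streak, averaged 492 ± 105 in Rreb1+/+ and 601 ± 197 in Rreb1-/- embryos (limma adjusted p = 0.58). Zeb2 averaged 1666 ± 161 and 1456 ± 182 (adjusted p = 0.32), and Snai2 and Zeb1 both had an adjusted p of 0.67. Among 14 regulators of clustered protocadherin transcription, such as CTCF, the cohesin subunits and SMCHD1, none was called by the 3 tools and none had an unadjusted limma p under 0.05 (median log2 fold change −0.04). Of 14 genes of cadherin turnover 1 was called, Numb, an endocytic adaptor, which was lower without overlap. It averaged 2103 ± 36.7 and 1835 ± 60.0, with a log2 fold change of −0.20 and an adjusted p of 0.0447 in limma. The call of Numb was lost in each of the 10 fits without 1 embryo (adjusted p 0.0546 to 0.120), with the replicate number as a block (adjusted p = 0.0609) and with the Y-linked covariate (log2 fold change −0.26, adjusted p = 0.18). All 14 had a log2 fold change below 0, from −0.47 to −0.03 with a median of −0.13, beside 8252 of the 15603 genes tested, although the mean normalized count of Pcsk6 was higher in the mutants.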

How the data were processed

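RNA-sequencing of 10 single embryos at E7.5 was analysed, 5 Rreb1+/+ and 5 Rreb1-/-. Libraries were made from polyadenylated RNA with a stranded kit. The authors aligned reads with STAR, sorted them with Picard, counted them per gene with HTSeq and divided each embryo's counts by a DESeq size factor. The deposited signal is therefore a normalized count on a linear scale. Their genome build, gene models, software versions and strand setting: not given in the sources used here. The table lists no gene with fewer than 15 reads in total. All values came out as whole multiples of 1 step per embryo (tolerance 0.1 read), and these recovered reads served for depth, edgeR and DESeq2. Depth was 31467767 to 35786876 reads per embryo, and intervals reflect only the spread between embryos. Columns of no sample numbered 0.

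Positions, exon lengths and shared exons were looked up in GENCODE M21 (GRCm38) through gene identifiers, which matched for 20884 genes and all 57 members, of which 46 had the same identifier version. The symbol Pcdhga8 stood on more than 1 row, and the row whose identifier is Pcdhgc4 in M21 was named so. Promoter sequences came from RefSeq.

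Genotypes were compared over 15603 genes with limma 3.58.1 (variance following the mean) in R 4.3.3 on log2(normalized count + 1). Exact two-sided permutation tests used all 252 arrangements. Alternatives were edgeR 4.0.16, DESeq2 1.42.0, TMM factors, pseudocounts of 0.5 and 5, other filters and thresholds, a block for the replicate number, the log2 sum of Y-linked counts as a covariate, replicates 2 to 4 or 5 and 6 alone, and leaving out each embryo. The replicate set as a covariate and its interaction with genotype were added after seeing the data. Embryos of the same number in both genotypes deviated together (correlations 0.253 to 0.459 for 5 pairs). These correlations also contain the difference between replicates 2 to 4 and replicates 5 and 6, and only 3 of 10 embryos correlated best with their own number. The block thus rests on the numbers in the titles. The labels do not say that embryos of the same number were littermates.

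Genes named were all called members, all tested cadherins and non-clustered protocadherins, the 3 highest genes of each protocadherin cluster, and, of the related lists, those called plus Ctnnb1, Ctnna1, Ctnnd1, Snai1, Snai2, Zeb1 and Zeb2. Others (Ret, Cdhr5, Clstn1, Fat3, Pvrl3, Pcsk6, neuronal markers and the untested genes) were named after their values were seen. The members and the lists were chosen with earlier results of these data known. Fits were tested on simulated data. Other experiments of the study were not analysed here.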

Additional observations from a re-analysis of the deposited data

Results flagged for a closer look

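In 4 of the 78 groups of 5 embryos (39 tested genes in 2 genotypes), 1 embryo lay far from the other 4, with a gap of more than 0.71 of the range of the group. Chance gives about 1 in 20 such groups. Cdh23 was 35.3 in Rreb1-/- replicate 3, against 12.5 to 18.1 in the other mutants. Cdh8 was 19.1 in Rreb1+/+ replicate 4, against 3.77 to 8.03 in the other Rreb1+/+ embryos. Pcdhga2 was 26.9 in Rreb1+/+ replicate 2, against 35.1 to 38.4. Pcdhgb7 was 37.5 in Rreb1+/+ replicate 5, against 15.4 to 21.7. None of these genes was called between genotypes.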

How the results depend on the processing

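In the fit reported, 2 cadherins were higher and 0 lower in the mutants, and 0 protocadherins were higher and 1 lower. By edgeR, and by limma after TMM scaling, 0 protocadherins were lower. DESeq2 and replicates 2 to 4 alone each added 1 higher protocadherin (Pcdh7), and replicates 2 to 4 alone left 0 lower and gave 3 higher cadherins (Cdh8 added). At an adjusted p under 0.01, 1 cadherin was higher and 0 protocadherins lower. With a 2-fold minimum, with the Y-linked covariate and in replicates 5 and 6 alone, 0 were called in all 4 counts. No share over all genes tested stands beside these settings, so the lost calls cannot be read as particular to these genes. For Pcdh19 the Y-linked covariate raised the standard error from 0.18 to 0.29, with log2 fold changes of −0.73 and −1.18. Leaving out 1 embryo gave 1 to 2 higher cadherins and 0 to 1 lower protocadherins. With the replicate block 3 cadherins were higher (Cdh4 added) and 1 protocadherin lower, and in the related lists it added Ret, Cdhr5 and Pvrl3 and ended the call of Numb; it changed no other call of a named gene. Pseudocounts, filters on low values and the replicate set as a covariate left the 4 counts as they were. Of 168 alternative fits of the 7 called genes, 115 kept the call, 53 lost it and 0 had the opposite sign. Of 1009 fits of the 43 other genes followed in this way, 6 gained a call. Ret, Pvrl3, Fat3, Clstn1 and Cdhr5 were not among these 43, although each gained a call in a fit given above. Means of a few reads, as in the beta cluster, limit what could be seen there.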
